A study of Mus musculus with 35 samples.

Results

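Pmaip1, 1500015A07Rik and 4930503L19Rik are genes of mouse chromosome 18 whose array signal was lower in mice lacking the β2 adrenergic receptor than in wild type mice in several states. They were chosen by the measured difference of knockout minus wild type in these arrays, on the chromosome that carries the targeted locus, and are 3 of the 18193 genes measured and 3 of the 459 measured genes of chromosome 18. The array has 4 probe sets for them: 1 for Pmaip1, 1 for 1500015A07Rik and 2 for 4930503L19Rik. RNA came from brain hemispheres of male FVB mice, and each of the 35 arrays held 1 labelled sample.

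The 6 groups were knockout after middle cerebral artery occlusion (MCAO, 7 arrays), wild type after MCAO (7 arrays), knockout after sham surgery (3 arrays), wild type after sham surgery (3 arrays), naive knockout (7 arrays) and naive wild type (8 arrays). MCAO blocks the artery that supplies much of a cerebral hemisphere and is a model of ischemic stroke. The surgery groups were sampled 24 h after the operation, from the ischemic hemisphere after MCAO and from the hemisphere of the same side after sham surgery. All groups share the FVB strain and male sex. The labels give neither the age of the mice, nor the construction of the knockout allele, nor its backcrossing, nor whether each array is a separate animal, so that the spread between arrays may be partly technical.

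Pmaip1 codes for Noxa, a protein of the BCL-2 family that carries only the BH3 domain. BH3-only proteins start the mitochondrial path of apoptosis by binding the survival proteins of the family (Bcl2, Bcl-xL, Mcl1), which frees the effectors Bax and Bak1 to open the outer mitochondrial membrane. Noxa binds mainly Mcl1, and its gene is a target of p53 and also of stress-induced factors such as Atf3, Atf4 and Hif1a. 1500015A07Rik is annotated by RefSeq as a long non-coding RNA and 4930503L19Rik as a protein-coding gene. In the order of the chromosome 1500015A07Rik comes first, then Pmaip1, then 4930503L19Rik, with 53 other measured genes between the first and the last.

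Values are log2 signals after RMA, a method that corrects background, normalizes arrays and summarises the probes of a probe set. A difference of 1 on this scale is a doubling. The naive set was normalized on its own, so levels are compared only within each set. As the samples are whole hemispheres, fewer cells of a type and less RNA per cell cannot be told apart. Markers of neurons, which a hemisphere should hold, had array means between 11.52 and 13.27 over 6 genes in all groups. The lowest was in naive wild type arrays, whose median was 12.98. Those of infiltrating monocytes and neutrophils had array means between 5.27 and 7.00 over 10 measured genes of 12 listed.

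Naive wild type array 6 stood apart from its set. Its median correlation with the other naive arrays was 0.819, against at least 0.983 for every other array of its group. Its β-actin 3′ probe set exceeded the 5′ one by 4.88 on the log2 scale, against 0.28 to 0.72 in the other naive wild type arrays, a sign of shortened RNA. Naive genotype differences of Pmaip1, 1500015A07Rik and 1 probe set of 4930503L19Rik are therefore given with and without it. Some counts and correlations are too, and the other naive values include it unless stated. The naive genotypes also differed over the whole array: median signals were 7.02 to 7.05 in knockout and 6.87 to 6.94 in wild type arrays. The low end ran the other way. The 1st percentile, below which 1% of an array's signals lie, was 3.61 to 3.67 in knockout and 3.90 to 4.15 in wild type. Between 1744 and 2878 of the 45101 probe sets held exactly the same value in any pair of naive knockout arrays, against 1 to 48 in pairs of naive wild type arrays. These differences and the genotype cannot be told apart in the naive set.

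Pmaip1 had the lowest values of its surgery set in knockout sham hemispheres. The knockout MCAO arrays read 5.88, 5.90, 6.22, 6.23, 6.30, 6.49 and 6.80, with a median of 6.23. The wild type MCAO arrays read 7.04, 7.45, 7.61, 7.70, 7.72, 7.74 and 8.84, with a median of 7.70. Every knockout array lay below every wild type array, and the gap between the closest arrays was 0.25.

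After sham surgery the knockout arrays read 4.45, 4.63 and 4.55, against 6.18, 6.30 and 5.64 in wild type. The groups did not overlap, with a gap of 1.01. The mean of knockout hemispheres after MCAO (6.26 ± 0.322, SD, n = 7) was close to that of wild type hemispheres after sham surgery (6.04 ± 0.355, SD, n = 3).

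The naive knockout arrays read between 4.70 and 5.04 with a median of 4.91, against 6.32 to 8.09 with a median of 7.46 in the 8 wild type arrays. No arrays overlapped, and the gap was 1.27. Among the wild type arrays, arrays 1 to 4 read 7.37 to 7.67 and arrays 5, 7 and 8 read 6.32 to 6.67, while array 6 was the highest. The knockout arrays kept within 0.34 of each other.

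As a description of the contrast that chose the gene, Pmaip1 in knockout minus wild type was -1.47 after MCAO (SE 0.20), a fold of 0.361. It was -1.50 after sham surgery (SE 0.30, fold 0.354) and -2.33 in naive hemispheres (SE 0.23, fold 0.199). Without naive wild type array 6 the naive difference was -2.20. Over all 18193 genes, 0.121% had every knockout array below every wild type array after MCAO, 21.8% after sham surgery with its 3 arrays per genotype, and 5.26% in naive mice. Pmaip1 had the most negative difference of all genes in naive mice.

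**Figure D1:**
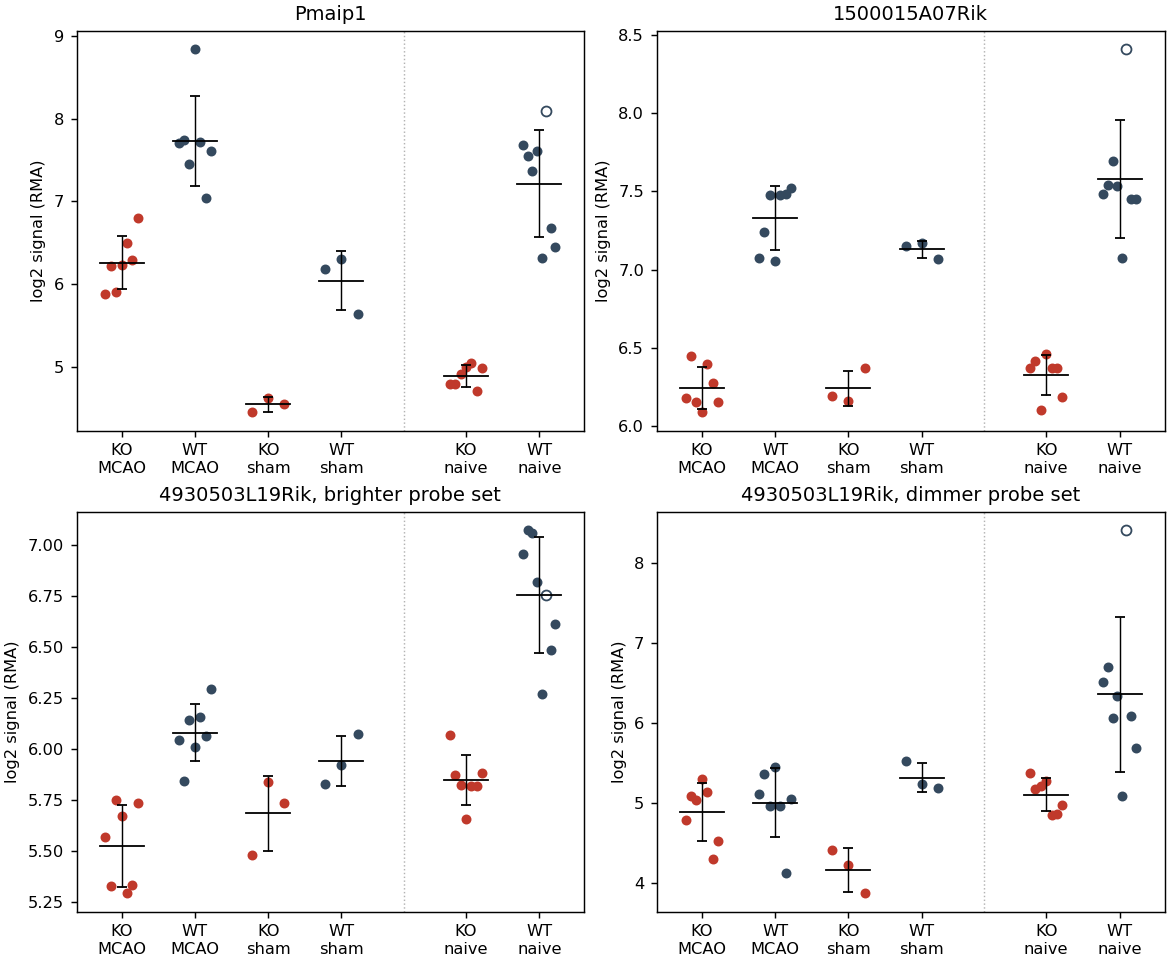
Log2 RMA signal of each array for the 4 probe sets, with knockout (KO, red) left of wild type (WT, dark) in each state. Lines and bars are means and SDs, the open circle is naive wild type array 6, and the dotted line separates the naive set, normalized on its own; Pmaip1 arrays of the genotypes do not overlap in any state, with gaps of 0.25, 1.01 and 1.27.

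1500015A07Rik had nearly the same level in the knockout groups of the surgery set and varied little within them. After MCAO the knockout arrays read 6.09, 6.15, 6.15, 6.18, 6.28, 6.40 and 6.44, against 7.05, 7.07, 7.24, 7.48, 7.48, 7.48 and 7.52 in wild type. After sham surgery they read 6.19, 6.16 and 6.37 in knockout, against 7.15, 7.17 and 7.07 in wild type. All knockout arrays lay below all wild type arrays, with gaps of 0.61 after MCAO and 0.70 after sham surgery. The same held for 0.121% of all genes after MCAO and 21.8% after sham surgery.

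In naive hemispheres 1500015A07Rik ranged from 6.10 to 6.46 in knockout (median 6.37) and from 7.07 to 8.41 in wild type (median 7.51). Of the naive knockout arrays, 3 held exactly the same value, 6.37. The wild type maximum was again array 6, and the next highest array read 7.70. The gap between the genotypes was 0.62, where 5.26% of all genes had every knockout array below every wild type array.

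The genotype difference of the non-coding RNA, knockout minus wild type, was -1.09 after MCAO (SE 0.09), -0.89 after sham surgery (SE 0.13) and -1.26 in naive mice (SE 0.15). The folds were 0.470, 0.540 and 0.419. Leaving out naive wild type array 6 gave a naive difference of -1.14. These values chose the gene and carry no test.

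4930503L19Rik was read by a brighter probe set, which represents the gene in the fits, and a dimmer one, and they did not give the same picture. On the brighter probe set the knockout MCAO arrays read 5.29, 5.33, 5.33, 5.57, 5.67, 5.73 and 5.75, against 5.85, 6.01, 6.04, 6.07, 6.14, 6.16 and 6.30 in wild type. The groups came within 0.097 of each other without overlapping, as held downward for 0.121% of all genes. After sham surgery the arrays read 5.48, 5.84 and 5.73 in knockout, against 5.83, 5.92 and 6.07 in wild type, and 1 knockout array lay above the lowest wild type array.

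Naive levels on that probe set ran from 5.66 to 6.07 in knockout (median 5.83), against 6.27 to 7.07 in wild type (median 6.79). The arrays did not overlap, with a gap of 0.20, as held downward for 5.26% of all genes. Knockout minus wild type was -0.56 after MCAO (SE 0.09), -0.26 after sham surgery (SE 0.14) and -0.91 in naive mice (SE 0.12). The naive wild type mean was 6.76 with array 6 and 6.75 without it.

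The dimmer probe set of 4930503L19Rik overlapped between genotypes after MCAO, with 4.31 to 5.30 in knockout (median 5.04) and 4.13 to 5.45 in wild type (median 5.05). After sham surgery it read 4.41, 4.22 and 3.87 in knockout, against 5.53, 5.24 and 5.19 in wild type, with no overlap (21.8% of all genes). In naive mice it ran from 4.85 to 5.37 in knockout and from 5.09 to 8.41 in wild type, where array 6 was the maximum and the next array read 6.70. The differences were -0.12 after MCAO (SE 0.18), -1.15 after sham surgery (SE 0.27) and -1.25 in naive mice (SE 0.35), or -0.96 without naive wild type array 6. Both probe sets had negative differences in each state, in a different order of the states. No detection calls were used here, so whether the lowest signals lie above background was not tested.

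The response to MCAO was not itself used to choose the genes and was tested. Its arrays, the sham arrays included, are among those whose genotype differences chose them. A low knockout sham value may favour both the choice and a rise in knockout, so these tests are not independent of the choice. Pmaip1 rose in both genotypes. In knockout hemispheres it averaged 6.26 ± 0.322 after MCAO (SD, n = 7) and 4.54 ± 0.0906 after sham surgery (SD, n = 3), a log2 change of 1.72 (SE 0.25, 95% interval 1.19 to 2.25), or 3.29-fold (limma adjusted p = 7.72e-05 over all genes). All 7 MCAO arrays lay above all 3 sham arrays, as did those of 15.6% of all genes, and 16.1% of all genes were called higher, a call being an adjusted p under 0.05.

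In wild type hemispheres Pmaip1 averaged 7.73 ± 0.546 after MCAO (SD, n = 7) and 6.04 ± 0.355 after sham surgery (SD, n = 3). The change was 1.69 (SE 0.25, 95% interval 1.16 to 2.22), or 3.22-fold (limma adjusted p = 0.000139). Again no arrays overlapped, as held upward for 10.6% of all genes, and 8.68% of all genes were called higher. Wild type MCAO array 4 had the highest Pmaip1 value, 8.84, and also the highest β-actin 3′ minus 5′ difference of its group, 1.70, and the highest mean of the infiltrating cell markers, 7.00, with S100a8 at 10.73. Without that array the rise was 1.50 (adjusted p = 2.58e-05). The part of RNA quality and of infiltrating cells in the value of that array was not tested.

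Markers of other cell types also moved with surgery, and their part in the Pmaip1 rise was not tested. The calls below stand beside 16.1% of all genes called higher and 8.9% called lower in knockout, and 8.68% and 7.27% in wild type. Of 5 endothelial markers 3 were called higher in each genotype, with array means of 7.90 to 8.96 in knockout and 8.30 to 9.23 in wild type after MCAO, against 7.64 to 7.81 in knockout and 7.60 to 8.04 in wild type after sham surgery. The endothelial adhesion gene Cdh5 rose by 1.61 in knockout and 1.49 in wild type, and Pecam1 by 1.31 and 1.23. Another probe set of Cdh5 was not called (-0.09 in knockout, 0.46 in wild type). Of 5 astrocyte markers 2 were called higher in each genotype, among them Gfap, the filament gene of reactive astrocytes (2.13 in knockout, 1.95 in wild type). Of 4 measured oligodendrocyte markers 1 was called higher in knockout and 2 in wild type. The wild type count was 1 without wild type sham array 2 or 3. Of 4 measured microglial markers 2 were called lower in each genotype, among them P2ry12, a gene of resting microglia (-1.62 in knockout, -2.71 in wild type). Of 6 meningeal and fibroblast markers 3 were called higher in knockout and 1 in wild type, among them Dcn, which codes for decorin (1.21 and 1.96). Another probe set of Dcn was not called (0.01 in knockout, 0.32 in wild type). Without knockout sham array 1 or 2 the knockout count for meningeal markers was 0 and that for microglia 1, and without knockout sham array 2 or 3, or wild type sham array 3, the astrocyte count of that genotype was 1.

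The rise of Pmaip1 in knockout minus its rise in wild type was 0.03 (SE 0.36, 95% interval -0.72 to 0.78, limma adjusted p = 0.961). An interval of this width does not show that the rises were alike. This interaction is built from the same genotype differences that chose the gene, and over all genes 9.59% were called in it, a count of 1744 that fell to 0 without knockout sham array 3 and lay between 0 and 2698 without each array in turn (5732 genes had an unadjusted p under 0.05).

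No change after MCAO was called for 1500015A07Rik or for the brighter probe set of 4930503L19Rik. In knockout 1500015A07Rik changed by 0.00 (SE 0.11, 95% interval -0.23 to 0.24, limma adjusted p = 0.994), and in wild type by 0.20 (SE 0.11, 95% interval -0.03 to 0.44, adjusted p = 0.227). 4930503L19Rik changed by -0.16 in knockout (SE 0.12, 95% interval -0.41 to 0.09, limma adjusted p = 0.331). Its wild type change was 0.14 (SE 0.12, 95% interval -0.11 to 0.39, adjusted p = 0.444). The MCAO and sham arrays overlapped in each of these comparisons, and the intervals exclude changes of the size seen for Pmaip1.

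The dimmer probe set of 4930503L19Rik rose after MCAO in knockout by 0.72 (SE 0.23, 95% interval 0.24 to 1.20, limma adjusted p = 0.0342 over the 45037 probe sets other than controls, of which 18.7% were called). Its MCAO and sham arrays overlapped, at 4.31 to 5.30 and 3.87 to 4.41. In wild type it changed by -0.31 (adjusted p = 0.404, where 10.7% of probe sets were called). The difference of the changes was 1.03 (SE 0.32, limma adjusted p = 0.0546; 7.41% were called). The rise did not keep its call with arrays centred on their medians (0.56, adjusted p = 0.0546), with the β-actin difference as a covariate (0.65, adjusted p = 0.134), or without any 1 of 6 knockout arrays, namely sham arrays 2 and 3 and MCAO arrays 2, 3, 4 and 5, where the lowest value was 0.57 (adjusted p = 0.193).

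The BCL-2 family gives the setting of the Pmaip1 rise. Its 8 BH3-only genes were all measured, and Pmaip1 is 1 of them. After MCAO 2 of the 8 were called higher and 1 lower in knockout. In wild type 3 were called higher and 0 lower (1 was called there without wild type sham array 2). Of the 7 genes other than Pmaip1, 2 were called in each genotype. Over all genes 16.1% were called higher and 8.9% lower in knockout, and 8.68% and 7.27% in wild type. The median changes of the list, Pmaip1 included, were 0.03 in knockout and 0.17 in wild type, beside -0.00 and 0.05 over all genes. Bid, whose cleaved product carries death receptor signals to mitochondria, rose by 0.61 in knockout (SE 0.11, limma adjusted p = 0.000608) and by 0.46 in wild type (SE 0.11, adjusted p = 0.00852). The 2 further Bid probe sets were not called in knockout (-0.05 and 0.32), and in wild type 1 was called (0.49) and 1 was not (0.31). The wild type call of Bid was lost without wild type sham array 2. Hrk, a neuronal BH3-only gene, fell by 0.52 in knockout (SE 0.16, adjusted p = 0.0265), and its change in wild type was -0.45 (adjusted p = 0.068). The fall of Hrk was not called without knockout sham array 2 or 3.

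Bik rose by 0.35 in wild type (SE 0.12, limma adjusted p = 0.0475) and changed by -0.18 in knockout (adjusted p = 0.249), with an interaction of -0.53 (adjusted p = 0.0472). The other 2 Bik probe sets were not called in either genotype, the rise was not called when any 1 of 13 of the 20 arrays was left out, the sham arrays among them, and the interaction was lost for 14 of 20. The remaining BH3-only genes Bcl2l11, Bbc3, Bad and Bmf were not called on their brightest probe sets, with changes between -0.19 and 0.25. Another Bcl2l11 probe set was called higher in wild type (0.40, limma adjusted p = 0.0227) and changed by 0.01 in knockout. Its further probe sets were not called in either genotype. Bbc3 codes for Puma, another p53 target, and changed by 0.03 in knockout and 0.10 in wild type. In knockout against wild type limma called 0 of the 7 BH3-only genes other than Pmaip1 in any of the 3 states. Of these 7, 2 had an unadjusted p under 0.05 after MCAO, 1 after sham surgery and 2 in naive mice. Over all 18193 genes limma called 8 after MCAO, 1101 after sham surgery and 2669 in naive mice. At an unadjusted p under 0.05 those counts were 3165, 4702 and 5049. Beside these counts, 0 of 7 does not set Pmaip1 apart within the family.

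Among the survival genes of the family, 5 of 9 listed were measured, and 2 were called higher and 0 lower after MCAO in knockout, against 2 higher and 1 lower in wild type. Over all genes 16.1% were called higher and 8.9% lower in knockout, and 8.68% and 7.27% in wild type. Without knockout sham array 1 or 2 the knockout count was 1. Mcl1, the main partner of Noxa, rose by 1.22 in knockout (SE 0.12, limma adjusted p = 7.79e-07) and by 0.71 in wild type (SE 0.12, adjusted p = 0.000315). All 6 of its probe sets were called higher in both genotypes, and the difference of the changes was 0.50 (adjusted p = 0.0559). In knockout minus wild type Mcl1 was at -0.50 after sham surgery, where it was called (adjusted p = 0.0379), at -0.00 after MCAO and at -0.13 in naive mice. Over all genes 1101 were called after sham surgery, and 0 were when wild type sham array 2 or knockout sham array 3 was left out, which holds for each sham genotype call given here.

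Bcl2 fell by 0.59 in wild type (SE 0.11, limma adjusted p = 0.000975), and its change in knockout was -0.21 (adjusted p = 0.164, interaction adjusted p = 0.0995). Of its 4 other probe sets 2 were called lower in knockout only (-0.42 and -0.56) and 2 in wild type only (-0.58 and -0.60). Bcl2l1, which codes for Bcl-xL, rose by 0.37 in knockout (SE 0.11, adjusted p = 0.0216) and by 0.36 in wild type (adjusted p = 0.0343), though its 3 other probe sets were not called and were negative in knockout. The mean of all Bcl2l1 probe sets changed by -0.34 in knockout. Its call was lost without knockout sham array 1 or 2 in knockout, and without wild type sham array 2 or 3 or MCAO array 5 or 6 in wild type. Of the effectors, 2 of 3 listed were measured. Bok rose by 0.46 in wild type (adjusted p = 0.0157) and its change in knockout was 0.32 (adjusted p = 0.0635). The Bok call was lost without wild type sham array 1 or 3. Without knockout MCAO array 7 the count of called effectors was 1 in knockout, and without knockout MCAO array 5 it was 2 in wild type. Bak1 was not called, with -0.15 in knockout and 0.55 in wild type (adjusted p = 0.063). Of the other survival genes Bcl2l2 changed by -0.01 in knockout and -0.04 in wild type, and Bcl2l10 by -0.25 and -0.04, none of them called. The 4 further listed survival genes and Bax were not analysed here.

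Of 10 transcription factors known to induce Pmaip1, 9 were measured, and 5 rose and 1 fell after MCAO in knockout, against 4 and 1 in wild type. These were 55.6% and 11.1% of the list in knockout, beside 16.1% and 8.9% of all genes, and 44.4% and 11.1% in wild type, beside 8.68% and 7.27%. Their median changes were 0.31 in knockout and 0.17 in wild type, beside -0.00 and 0.05 over all genes. Atf3, an immediate stress factor, rose by 2.70 in knockout (SE 0.35, limma adjusted p = 2.28e-05) and by 2.95 in wild type (SE 0.35, adjusted p = 1.36e-05). Atf4 rose by 0.69 in knockout and 0.62 in wild type (adjusted p = 0.00121 and 0.00457), and Ddit3, which codes for CHOP, by 0.63 and 0.44 (adjusted p = 0.00303 and 0.0401). Each of these 2 genes has another probe set that was not called, and the wild type call of Ddit3 was lost without any 1 of 8 wild type arrays, the 3 sham arrays among them. Irf1, an interferon-response factor, rose by 0.31 in knockout (adjusted p = 0.0345) and by 0.64 in wild type (adjusted p = 0.00035), and its knockout call was lost without any 1 of 6 knockout arrays, the 3 sham arrays among them. The wild type count of called factors was 3 in all without wild type sham array 1. The calls of Atf3, Atf4 and Mcl1 in both genotypes stood without any 1 of the 20 arrays.

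The hypoxia factor gene Hif1a rose by 0.72 in knockout (SE 0.15, limma adjusted p = 0.0014), and its wild type change was 0.09 (adjusted p = 0.704). The difference of these changes had an adjusted p of 0.0566. Of the 3 other Hif1a probe sets 1 was called in knockout (0.51) and 2 were not (-0.34 and 0.29). E2f1 fell by 0.44 in knockout (adjusted p = 0.0124), with -0.06 in wild type (adjusted p = 0.773) and an interaction of -0.38 (adjusted p = 0.135). Foxo3 fell by 0.42 in wild type (adjusted p = 0.0185) and its knockout change was -0.26 (adjusted p = 0.112). For each of these genes 1 of the 2 other probe sets was called in the same genotype and direction (-0.42 for E2f1 and -0.49 for Foxo3). The E2f1 call was lost without knockout sham array 3 and the Foxo3 call without wild type sham array 1. In knockout against wild type 0 of the 9 were called by limma after MCAO (2 had an unadjusted p under 0.05). Over all 18193 genes 8 were called there, and 3165 had an unadjusted p under 0.05. Trp73 was called higher after sham surgery (0.43), as were 3.52% of all genes, and Atf3 lower in naive mice (-0.46), as were 8.31%.

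**Figure D2:**
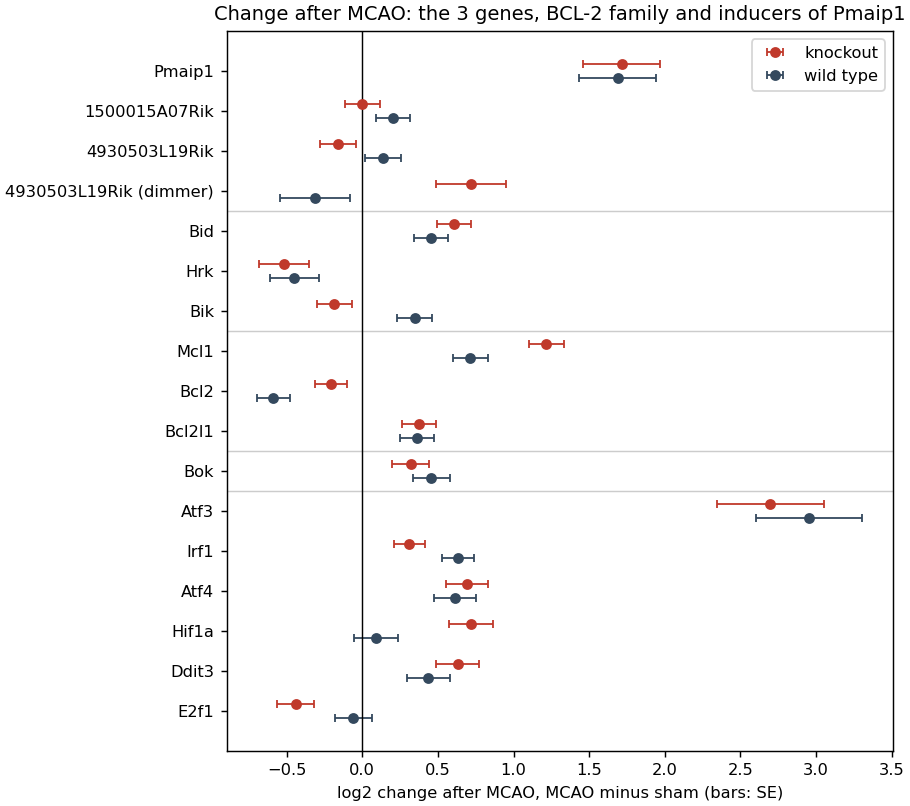
Log2 change after MCAO (MCAO minus sham, bars are SE) in knockout (red, upper point) and wild type (dark, lower point) for the probe sets of the 3 genes, then for BH3-only, survival and effector genes of the BCL-2 family and factors known to induce Pmaip1 that were called in at least 1 genotype. Pmaip1 lies at 1.72 and 1.69, and Atf3 at 2.70 and 2.95.

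Infiltrating monocyte and neutrophil markers moved with both surgery and genotype, and their part in the Pmaip1 values was not tested. Their array means were 5.30 to 6.07 in knockout and 5.97 to 7.00 in wild type after MCAO. After sham surgery they were 5.49 to 5.70 in knockout and 5.27 to 5.31 in wild type. In naive arrays they were 5.73 to 5.98 in knockout and 6.17 to 6.88 in wild type, where array 6 was the highest and the next was 6.50. After MCAO 2 of the 10 markers were called higher and 3 lower in knockout, beside 16.1% and 8.9% of all genes, and 2 higher and 0 lower in wild type, beside 8.68% and 7.27%. The knockout count of 5 was 3 without knockout sham array 1 or MCAO array 3 or 4, 2 without sham array 2 and 1 without sham array 3. S100a8, a neutrophil gene, rose by 2.10 in knockout (limma adjusted p = 0.0122) and by 3.76 in wild type (adjusted p = 0.000176). In knockout against wild type 0 of 10 were called after MCAO, beside 0.044% of all genes. All 10 differences were below zero there, as were 8668 of the 18193 genes. After sham surgery 1 was called higher, beside 3.52% of all genes, and in naive mice 5 were called lower, beside 8.31%. Of the 10 markers 3 had an unadjusted p under 0.05 after MCAO, all lower. The knockout call of S100a8 was lost without knockout sham array 2.

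Within groups Pearson's r of the marker mean with Pmaip1 was -0.78 in knockout MCAO arrays (exact permutation p = 0.0343, Spearman's rho -0.71, p = 0.0881, n = 7) and 0.74 in wild type MCAO arrays (exact permutation p = 0.142, rho -0.21, p = 0.662, n = 7). Leaving out the 2 arrays farthest from the median marker level gave r of -0.31 in knockout and -0.93 in wild type, so that the positive r in wild type rests on those arrays. Of 20 relations computed within groups of 7 arrays, between the 3 genes and with the markers and the β-actin difference, 0 passed the Benjamini-Hochberg adjustment for Pearson's r (the lowest adjusted p of the exact permutation tests was 0.0952), and 6 had an unadjusted p under 0.05. In naive wild type arrays without array 6, r of 1500015A07Rik with 4930503L19Rik was 0.85 (exact permutation p = 0.00476, adjusted p = 0.0952, rho 0.89, n = 7). The same relation had r = -0.89 in knockout MCAO arrays (exact permutation p = 0.0115, adjusted p = 0.11, rho -0.86, n = 7).

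The β-actin 3′ minus 5′ difference, a measure of RNA quality, was 1.60 to 1.76 in knockout and 0.86 to 1.01 in wild type sham arrays. As these do not overlap, RNA quality and genotype cannot be told apart there. A fit with the β-actin difference as a covariate therefore does not test its part in the sham values. This difference averaged 1.66 ± 0.083 in knockout and 0.93 ± 0.077 in wild type sham arrays (SD, n = 3 each). In MCAO arrays it averaged 1.01 ± 0.52 in knockout and 0.87 ± 0.44 in wild type (SD, n = 7 each). With this difference as a covariate Pmaip1 in knockout minus wild type was -1.68 after sham surgery and -1.51 after MCAO. The rise of Pmaip1 after MCAO was then 1.88 in knockout (limma adjusted p = 0.000197) and 1.70 in wild type (adjusted p = 0.000108). For 4930503L19Rik the covariate gave -0.16 after sham surgery on the brighter probe set and -1.08 on the dimmer one.

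**Figure D3:**
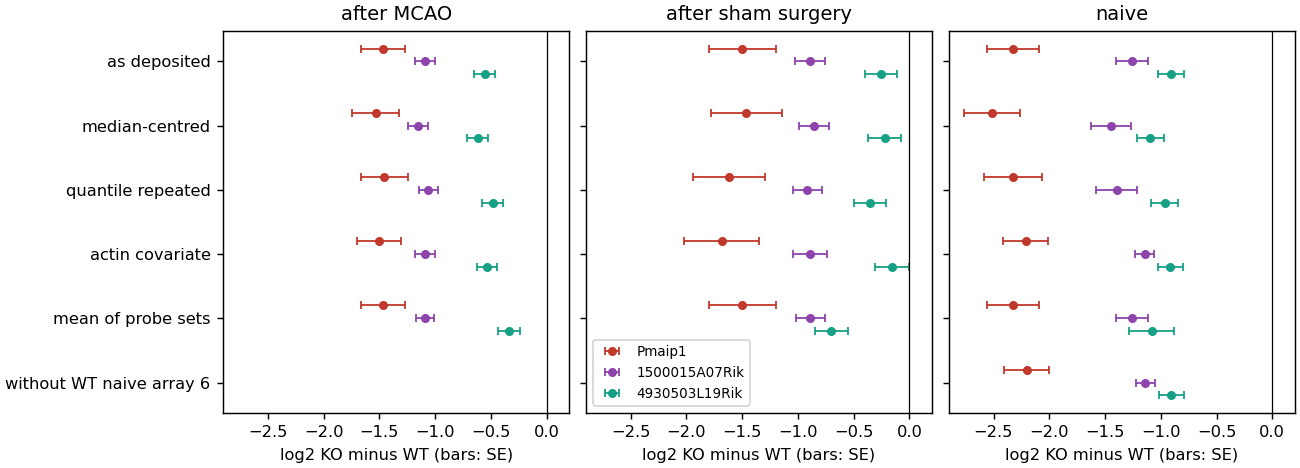
Log2 difference of knockout minus wild type (bars are SE) for Pmaip1, 1500015A07Rik and the representative probe set of 4930503L19Rik in the 3 states, under the deposited values and other settings; the last setting exists for naive mice only. All points lie below 0, and 4930503L19Rik after sham surgery moves from -0.26 to -0.70 when its probe sets are averaged.

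The other genes of chromosome 18 were counted in the same contrasts. After MCAO 0 of the 456 other measured genes of the chromosome, 0% in each direction, were called lower or higher in knockout, where limma called 0.044% of all genes, 8 in number. At an unadjusted p under 0.05 the count was 107 of the 456, 31 of them lower, beside 3165 of the 18193 genes. After sham surgery 29 were called lower (6.36%, beside 2.53% of all genes) and 17 higher (3.73%, beside 3.52%). Without wild type sham array 1, 2 or 3 the lower count was 3, 0 and 1, and without knockout sham array 2 or 3 it was 0. In naive mice 46 were called lower (10.1%, beside 8.31% of all genes) and 38 higher (8.33%, beside 6.37%). Without naive wild type array 6 the lower count was 75. None of the 456 was called lower in more than 1 state, 75 were called lower in 1 state, and 40 had a negative difference in all 3 states. The same counts over all genes are not given here. With 8 genes called in all after MCAO, few could be called both there and in another state. The 3 genes were chosen for lower values in several states, so the lack of others does not set them apart.

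The 53 measured genes that lie between 1500015A07Rik and 4930503L19Rik had median differences of 0.04 after MCAO, -0.12 after sham surgery and 0.00 in naive mice, beside 0.01, 0.02 and 0.05 over all genes. Of these 53 genes 0 were called by limma after MCAO, and 17 had an unadjusted p under 0.05. After sham surgery 7 were called lower and 5 higher, which is 13.2% and 9.43% of them, beside 2.53% and 3.52% of all genes. In naive mice 5 were called lower and 5 higher, 9.43% each way, beside 8.31% and 6.37% of all genes. With the β-actin covariate 8 of the 456 other genes were called lower after MCAO and 0 after sham surgery. Over all genes the same covariate moved the calls in either direction from 8 to 986 after MCAO, 792 of them higher. After sham surgery it moved them from 1101 to 6. The counts for the chromosome thus depend on that setting, as do those over all genes.

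The measured neighbours of Pmaip1, Ccbe1 before it and Gm19784 after it, differed by -0.16 and -0.03 after MCAO in knockout minus wild type, and neither was called. Gm19784 was called higher after sham surgery (0.49) and lower in naive mice (-0.74). Next in order were Lman1, with 0.27 after MCAO, and Gnal, with 0.12 after MCAO and a call in naive mice (0.28). Around 1500015A07Rik lay Pcyox1l (-0.22 after MCAO), Grpel2 (0.11), Afap1l1 (0.13) and Ablim3 (0.76), none of them called in any state. Around 4930503L19Rik lay Rab27b (0.48), Dynap (-0.05), Stard6 (-0.28) and Poli (0.31), of which Poli was called higher in naive mice (0.35).

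The neighbours of Pmaip1 moved in either direction after MCAO. Ccbe1 fell by 0.74 in wild type (limma adjusted p = 0.0149), and its change in knockout was -0.50 (adjusted p = 0.0662). Gm19784 fell by 0.37 in knockout (adjusted p = 0.0151), with 0.14 in wild type (adjusted p = 0.376). The call of Ccbe1 was lost without wild type sham array 1 or 3, and that of Gm19784 without knockout sham array 3. Lman1, which codes for a cargo receptor of the secretory pathway, rose by 0.48 in knockout (adjusted p = 0.00116) and changed by 0.04 in wild type (adjusted p = 0.781). Gnal, which codes for a G protein subunit of striatal neurons, fell by 0.89 in wild type (adjusted p = 0.0177) and its change in knockout was -0.44 (adjusted p = 0.197). The Gnal call was lost without wild type sham array 1 or 2.

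**Figure D4:**
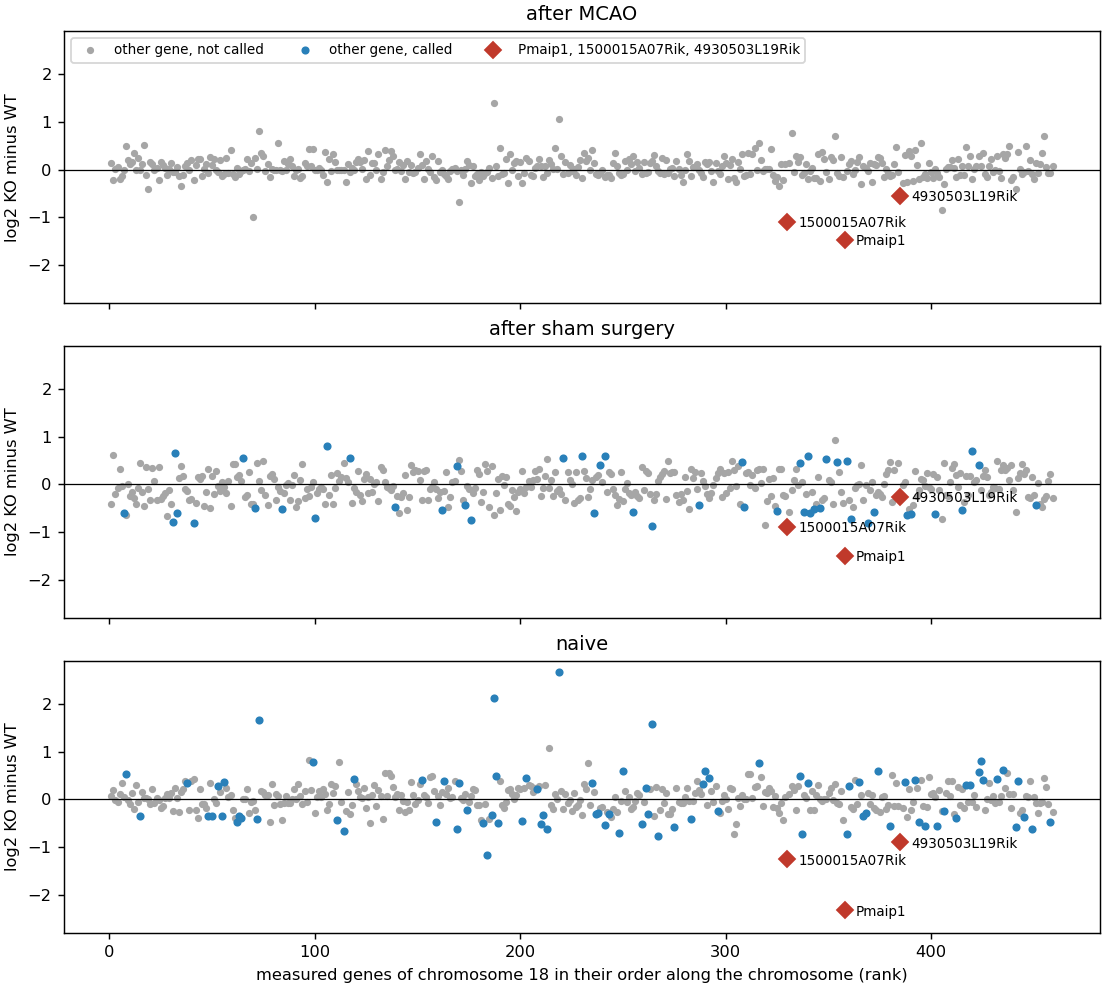
Log2 difference of knockout minus wild type for the 459 measured genes of chromosome 18, placed by rank along the chromosome, after MCAO, after sham surgery and in naive mice. Diamonds are the 3 genes chosen for this difference, blue points are other genes called at an adjusted p under 0.05, and after MCAO 0 of the 456 other genes were called.

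As no other gene of the chromosome was called lower in more than 1 state, those called lower in 1 state, ordered by their difference after MCAO, stood just outside the choice. The first was Zfp236, with knockout minus wild type differences of -0.41 after MCAO, -0.58 after sham surgery and -0.57 in naive mice, called in naive mice only. Next were 9030625G05Rik with -0.29, 0.45 and -0.25 in the same order of states and Slc25a2 with -0.28, 0.27 and -0.45, both called in naive mice only. Lipg, with -0.86, -0.72 and -0.24, and Rnf125, with -0.999, -0.41 and -0.03, were called in no state. Just inside was 4930503L19Rik with -0.56, -0.26 and -0.91.

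Beside the 3 genes, chosen on this contrast, the 8 calls in knockout against wild type after MCAO held 5 genes of other chromosomes. Lower in knockout were Il18 of chromosome 9, which codes for a cytokine of the inflammasome pathway, and Tmem243 of chromosome 5. Il18 differed by -0.47 after MCAO, -0.58 after sham surgery and -0.58 in naive mice, and was called in each state. Tmem243 differed by -0.63, -0.82 and -0.35 in the same order, and was not called in naive mice. Higher in knockout were Ring1 with 0.70, 0.90 and 0.73 in that order, called after sham surgery too, Dusp6 with 0.70, -0.06 and 0.50, and Ppp2r1b with 0.50, -0.20 and 0.22, both called after MCAO only. The 8 calls were 3 without wild type MCAO array 5 and 2 at an adjusted p under 0.01. After MCAO the limma adjusted p was 0.040 for Tmem243 and 0.0398 for Ppp2r1b, and in naive mice it was 0.0428 for Il18. Whether each of these 5 genes keeps its call without each array is not given here.

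Likeness of pattern was measured by Pearson's r with each gene over the 20 surgery arrays, which share the 4 groups, so that r follows the group means. Pmaip1 was most like Tmem243 (r = 0.92), Nars (0.88), Ccnl1 (0.88), H2-K1 (0.88) and Tex30 (0.87). Over the naive arrays without wild type array 6 these genes had r of 0.87, 0.81, -0.45, 0.93 and 0.33 with it, and with that array 0.32, -0.21, -0.58, -0.25 and 0.51. The sign for Nars and H2-K1 turned with array 6. The naive correlation is over 15 arrays with it and 14 without it, which hold only the 2 genotypes whose difference chose the genes, so that it follows that difference.

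1500015A07Rik was most like Il18 (r = 0.89), Rnf227 (0.83), Cox5b (0.79), 4930503L19Rik (0.78) and Rufy2 (0.78). 4930503L19Rik was most like Il18 (0.78), 1500015A07Rik (0.78), Rbm11 (0.74), Guk1 (0.74) and Fbxl18 (0.73). When the group means were removed, r of 1500015A07Rik with 4930503L19Rik over the surgery arrays was -0.11, and r of Il18 with them was 0.21 and 0.29. Every one of the lists of 5 changed fully with this measure, and Pmaip1 was then most like Npas2 (0.85), Bdnf (0.84), Exoc5 (0.83), Fbxo32 (0.83) and Dapk2 (0.82).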

How the data were processed

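The authors deposited signals on a log2 scale. RMA is named in the submitters' processing notes, and its version is not given in the sources used here. The labels name biotin labelling with an Affymetrix kit, and the design text states separate normalization of the naive set. Of 45101 probe sets, 64 were controls, 34945 had 1 gene symbol in the platform annotation, 932 had several and 9160 had none listed. By Entrez ID 34741 matched the RefSeq table (GRCm38), which served only for names, chromosome and gene order. Each of 18193 genes was represented by its brightest probe set on average. The dimmer probe set of 4930503L19Rik comes from a fit of all 45037 probe sets other than controls.

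Linear models were fitted with limma 3.58.1 (lmFit, contrasts.fit, eBayes; R 4.3.3) to the 20 surgery arrays and to the 15 naive arrays, with Benjamini-Hochberg adjustment over all genes and calls at an adjusted p under 0.05. The steps were tested on simulated data. Groups came from the labels. The genes and lists were chosen with earlier results of these data known, and knockout against wild type, which chose the 3 genes, is given without a test for them. Named are all probe sets of the 3 genes, up to 6 called members of each list, the 5 most like genes, 2 neighbours on each side and marker genes that move with a result. Further genes (Foxo3, Cdh5, Pecam1, Gfap, P2ry12, Dcn, Bak1 and others not called, those called after MCAO and those just outside the choice) were named after their values were seen. Alternatives covered the prior, dim genes, the choice of probe set, centring, quantile normalization, a threshold of 0.01, the β-actin covariate, the arrays fitted and each array left out. The targeted receptor gene was left out. The number of arrays limits the precision, above all the 3 sham arrays per genotype.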

Additional observations from a re-analysis of the deposited data

Results flagged for a closer look

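In 3 of the 16 sets of 7 or 8 arrays that were examined for the 4 probe sets, 1 array stood far from the rest of its group by Dixon's criterion, which chance alone meets in about 1 of 20 groups. Pmaip1 was 8.84 in wild type MCAO array 4, with the next highest array at 7.74. 1500015A07Rik was 8.41 in naive wild type array 6, with the next at 7.70, and this array also had the β-actin 3′ minus 5′ difference of 4.88. The dimmer probe set of 4930503L19Rik was 4.13 in wild type MCAO array 6, with the next lowest at 4.96.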

How the results depend on the processing

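The rise of Pmaip1 after MCAO was called under all alternatives tried that measured it, at 1.46 to 1.88 in knockout (highest adjusted p 0.000457) and 1.59 to 1.70 in wild type (highest adjusted p 0.00143). Without each array in turn it was 1.63 to 1.78 and 1.49 to 1.82. Its difference of knockout minus wild type stayed between -1.63 and -1.46 after MCAO, -1.68 and -1.46 after sham surgery, and -2.51 and -2.21 in naive mice; without each array it was -1.58 to -1.29, -1.70 to -1.37 and -2.46 to -2.20. Centring arrays on their medians shifted every gene by -0.16 for MCAO in knockout and -0.19 for genotype in naive mice. Values near zero changed sign: the Pmaip1 interaction was -0.071 after centring and -0.10 to 0.23 without each array, and 1500015A07Rik after MCAO in knockout was -0.15 after centring and -0.039 to 0.066 without each array. With the mean of its probe sets 4930503L19Rik gave 0.28 for MCAO in knockout, -0.087 in wild type and 0.37 for the interaction, none of them called, and -0.34 after MCAO and -0.70 after sham surgery for knockout minus wild type. The cause was the dimmer probe set, which enters the mean. The filter on dim genes removed the 3 genes and gave no value for them. The dimmer probe set, in knockout after MCAO, was 0.56 after centring, 0.65 with the β-actin covariate and 0.72 at an adjusted p under 0.01, not called in each, and 0.57 to 0.84 without each array. Its interaction was 0.88 to 1.15 without each array and was called in 4 of 20 cases. The mean of the Bcl2l1 probe sets was -0.34 in knockout. No detection calls were used, so low signals have no stated floor.

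Replicate numbers shared by the groups were also fitted as a block over 12 surgery and 14 naive arrays, where the Pmaip1 interaction was -0.14 with the block (adjusted p 0.678) and -0.14 for the same arrays without it, a fit chosen after seeing the data. The numbers were not taken to pair the arrays, as deviations of same-numbered arrays from their group means had r from -0.28 to 0.20 in the surgery set (5 of 18 over 0.1) and -0.071 to 0.31 in the naive set (5 of 7). The interaction then had 2 calls with and 2 without the block, and knockout against wild type after sham surgery 2401 and 3178.

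Counts over all genes moved more than the 3 genes, and the cause was not tested beyond the smaller or larger set of genes or arrays that a setting uses. The interaction (1744 calls) had 561 without dim genes, 3336 over all probe sets, 340 with quantile normalization, 8 with the β-actin covariate, 0 at 0.01 and 0 to 2698 without each array, the lowest without knockout sham array 3. Knockout against wild type after MCAO (8) had 59 over all probe sets, 986 with the covariate, 3 with only the arrays compared, 2 at 0.01 and 3 to 38 without each array. After sham surgery (1101) it had 402 without dim genes, 2105 over all probe sets, 565 after centring, 300 with quantile normalization, 6 with the covariate, 6 at 0.01, 3402 with only the arrays compared and 0 to 1833 without each array. In naive mice (2669) it had 163 without dim genes, of which 96.9% were higher in knockout (43.4% as deposited). It had 9046 over all probe sets, 1500 with quantile normalization, 6243 with the covariate and 1342 at 0.01. Without each array the naive count was 2004 to 6627, the highest without wild type array 6. MCAO in knockout (4545) had 2826 without dim genes, 8429 over all probe sets, 2856 with the covariate, 2170 at 0.01 and 2341 to 5397 without each array. MCAO in wild type (2901) had 4816 over all probe sets, 1286 at 0.01 and 1425 to 3224 without each array. Centring changed the share of calls that were higher to 28.8% for MCAO in knockout (64.4% as deposited), 37.4% in wild type (54.4%), 24.5% for the interaction (42.7%), 25% for genotype after MCAO (37.5%) and 7.31% in naive mice (43.4%). Quantile normalization gave 22.1% for the interaction, 54.5% for genotype after MCAO and 85% after sham surgery (58.2%).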
